A study of Rattus norvegicus with 6 samples.

Results

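Chemokines, interleukins, tumour necrosis factor (TNF) ligands, colony-stimulating factors and their receptors were examined in cerebral resistance arteries of the Dahl rat, a strain that becomes hypertensive when fed much salt. Genes were taken by symbol (Ccl, Cxcl, Ccr, Cxcr or Il followed by a digit, every Cx3c and Tnf name, and Csf names apart from the macrophage receptor Csf1r). This gave 97 of the 10411 genes named on the array. A pair of further probe sets carried several symbols at once and are counted only in an alternative. Rats in the high salt group ate chow with 8% NaCl from 7 weeks of age, for 11 weeks in one label field and 12 weeks in another. Rats in the low salt group ate chow with 0.4% NaCl from the same age for 12 weeks. Each group had 9 rats, and the arteries of 3 rats were pooled for each array, so that 3 arrays stood for each diet. The arteries were branches of the basilar artery and the circle of Willis, taken whole. Some were snap frozen and others kept in RNAlater; which array had which is not labelled.

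Chemokines are small secreted or membrane-tethered proteins that steer leukocytes through G protein-coupled receptors. Interleukins and colony-stimulating factors act on paired receptor chains that mostly signal through JAK kinases and STAT factors, while receptors of the interleukin-1, interleukin-17 and TNF families use adaptor proteins that end in NF-κB. In an artery wall these signals pass between endothelium, smooth muscle, fibroblasts and resident macrophages, and many of the ligands are made in quantity only after a stimulus.

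Values were log2 units after RMA (robust multi-array averaging), 1 value per probe set and array, and where several probe sets measured a gene, the one of highest average stood for it. A probe set was called above the median level where that mean exceeded 8.10, the mean of the 6 array medians. Probe sets differ in how well they bind, so that this level separates strong from weak signals and does not rank transcripts. Among the 97 genes 30 were above it, or 30.9%, against 60.0% of all genes. Of the 97, 19 were above the array's own median on all 6 arrays, 63 on none and 15 on some. Closest to the level were Csf3 (8.05) and Cxcl3 (8.04) below it, and Cxcr4 (8.14) and Csf2rb (8.19) above it.

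No 2 arrays held identical values, and high salt replicate 3 and low salt replicate 2 were the most alike of all pairs (r = 0.988, taken across probe sets within arrays and not across replicates). Low salt replicate 1 stood apart, with correlations of 0.919 to 0.967 to the other arrays. All 10 smooth muscle markers were above the median level, as were 8 of 9 endothelial markers, and 0 of 7 neuronal markers were. The 10 smooth muscle markers were all lower after high salt in each scaling, with a median of -0.28 as deposited and -0.47 after quantile normalization. They averaged 11.5, 11.4 and 11.4 on high salt replicates 1 to 3, against 12.0, 11.2 and 12.1 on low salt. Low salt replicate 2 thus lay below every high salt array, and the diets did not overlap for 1 of the 10 markers. The 4 red blood cell markers measured were all higher in each scaling (median 0.63), 2 of them at an unadjusted p below 0.05, and 0 were called. The part of these markers in the results was not tested. Astrocyte markers averaged 10.4 to 10.8 on the high salt arrays. On the low salt arrays they averaged 9.17, 10.7 and 8.54 (replicates 1 to 3), with 9 of 10 higher after high salt.

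None of the 97 genes was called after high salt, in either direction (limma with Benjamini-Hochberg adjustment over 15866 probe sets, lowest adjusted p = 0.803). Over all 10411 genes the share called was 0%. At an unadjusted p below 0.05 in the same fit stood 6 of the 97 genes, or 6.19%, where 6.43% of all genes stood. Of the 6, 5 were higher after high salt and 1 was lower, against 5.72% of all genes higher and 0.711% lower. Each of the 6 encodes a receptor: Il11ra1 and Il17ra among the interleukin receptor chains, and Tnfrsf1a, Tnfrsf11b, Tnfrsf21 and, on the low side, Tnfrsf8 among the TNF receptors. Arrays of the diets did not overlap for 12 genes, or 12.4%, where 12% of all genes did not. Of the 12, 7 were higher and 5 lower, against 8.64% of all genes higher and 3.32% lower. Both totals were close to those of all genes.

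Above the median level 4 of 30 genes stood at an unadjusted p below 0.05, or 13.3%, all higher, where 8.87% of all genes above that level did (7.97% higher and 0.896% lower). The same 4, Il11ra1, Il17ra, Tnfrsf1a and Tnfrsf11b, did not overlap between diets, where 13% of all genes above the level did not (11.4% higher and 1.58% lower). Tnfrsf11b reached the level only through the high salt arrays, with a mean of 8.83 on high salt and 7.57 on low salt, so that its difference put it among the 30. Cxcr4 likewise passed it only through the high salt arrays (means of 8.33 on high salt and 7.95 on low salt). Tnfrsf4 (8.08 and 8.37) and Csf2rb passed it only through the low salt arrays. The shares above the level are therefore a description and support nothing.

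**Figure D1:**
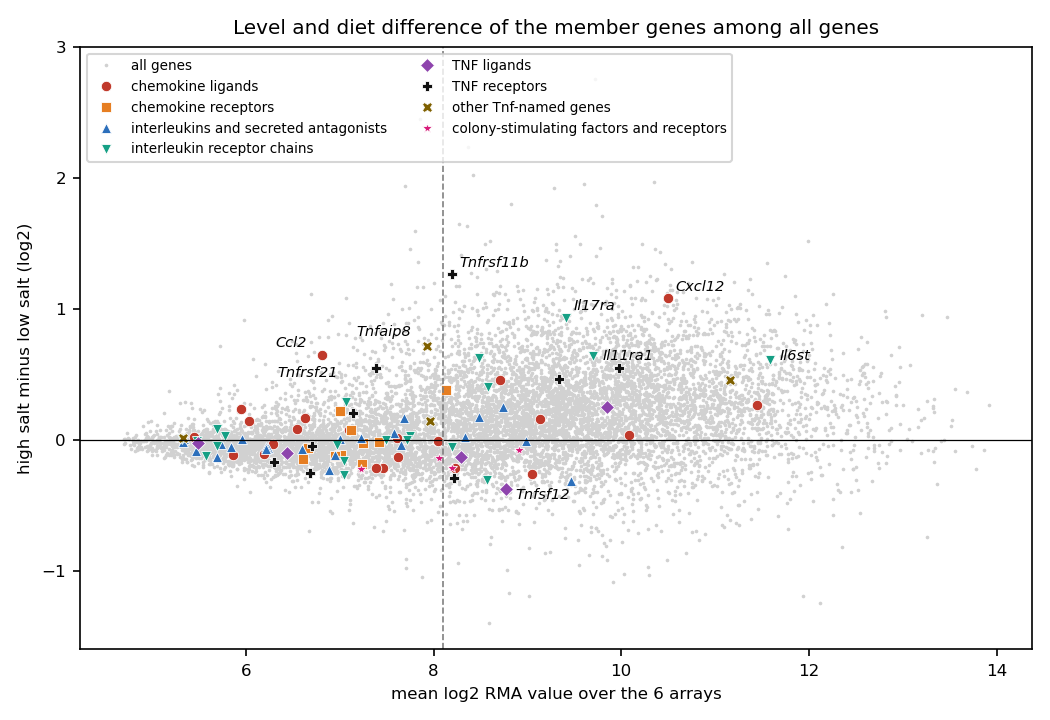
Difference between diets (high salt minus low salt, log2, vertical axis) against the mean log2 value over the 6 arrays (horizontal axis) for the 97 genes, coloured by class, over all genes in grey. The dashed line marks the median level of 8.10. Most of the 67 genes left of it lie within 0.3 of no difference, while the genes to its right spread from -0.37 for Tnfsf12 to 1.27 for Tnfrsf11b.

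The 67 genes at or below the median level had small differences between diets: 64 had a difference within 0.3 log2 units of 0, with a median standard error (SE) of 0.12. The exceptions were Ccl2, Tnfrsf21 and Tnfaip8, of which Tnfaip8 lies outside the rule for named genes and was chosen after its value was seen. The 30 genes above the level had a median difference of 0.21, and all 6248 genes above it had the same median, 0.21. These medians parted without low salt replicate 2, at -0.0378 for the genes studied and 0.25 for all genes above the level. Median centring shifts every gene on an array by the same amount, and it lowered all differences alike, by over 0.1. Small positive differences turn sign, and narrow ranges can part, through that shift alone. The median of all genes went to -0.06, against 0.07 as deposited. The 30 genes then had a median of 0.08, against 0.08 for all genes above the level. After quantile normalization it was -0.000506, against 0.00343. Of the 97 genes 46 were higher after high salt in the deposited values, 28 once the arrays were centred on their medians and 39 after quantile normalization. Of all 10411 genes 60.0% were higher as deposited, and 4457 and 4821 genes in the same rescalings. Above the level 73.3% of all genes were higher as deposited, 3673 of 6248 after centring and 3141 after quantile normalization. Of the 30 genes studied above it, 19 (63.3%) were higher as deposited. At or below the level 40.1% of all genes were higher as deposited, against 27 of the 67 genes studied (40.3%). The counts of classes and lists stand against these shares, each by its level. The sign was the same in all 3 for 74 of the 97 genes. All differences are as deposited. For genes given with their values on every array, a rescaled value stands beside the difference where rescaling moved it by more than 1.5 times or turned it.

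Among the 22 chemokine ligands 7 were above the median level, and 0 passed the test. Cxcl12, which holds progenitor cells and lymphocytes in place through Cxcr4, showed the widest difference of the 7. Its values were 11.14, 10.79 and 11.19 on high salt replicates 1 to 3, against 9.35, 11.01 and 9.50 on low salt replicates 1 to 3. Low salt replicate 2 lay inside the high salt range and the other low salt arrays well below it. The difference was 1.08 ± 0.46 (SE, 3 arrays per diet, here and for each difference that follows), or 2.12-fold. A second probe set above the level gave 0.85 ± 0.43, and the remaining one at 6.08, far below it, gave 0.02 ± 0.14. The mean of the 3 probe sets differed by 0.65, and the difference of the brightest one was 1.61 without low salt replicate 2. The astrocyte markers were high and low on the same low salt arrays as Cxcl12, and their part in this result was not tested. Fewer cells of a type and less RNA per cell cannot be told apart in whole arteries.

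Cxcl16, a membrane-bound chemokine and scavenger receptor of macrophages and vessel wall cells, had 11.29, 11.70 and 11.74 on high salt, against 10.99, 11.53 and 11.41 on low salt. These ranges overlapped, and the difference of 0.27 ± 0.20 was 0.05 after quantile normalization. Leaving out low salt replicate 1 gave 0.11, and leaving out high salt replicate 1 gave 0.41. Fractalkine (Cx3cl1), the tethered ligand of the microglial and monocyte receptor Cx3cr1, had overlapping values, at 10.17, 10.03 and 10.10 on high salt against 10.12, 9.65 and 10.42 on low salt. Its difference of 0.04 ± 0.21 turned to -0.0957 after median centring and -0.22 after quantile normalization, with a 95% interval of -0.47 to 0.54 in the deposited values. The other 4 ligands above the level, Cxcl13, Ccl5, Ccl6 and Ccl27, overlapped between diets too, although Ccl27 was lower with no overlap after either rescaling, and 5 of the 7 were higher after high salt (4 after median centring, 3 after quantile normalization).

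The 15 dim chemokine ligands were Ccl2, Ccl3, Ccl4, Ccl11, Ccl17, Ccl20, Ccl22, Ccl28, Cxcl1, Cxcl2, Cxcl3, Cxcl6, Cxcl9, Cxcl10 and Cxcl14, at levels of 5.45 to 8.04 and differences of -0.22 to 0.64. The upper end was Ccl2, the chief attractant of monocytes, with 6.68, 7.93 and 6.80 on high salt against 6.23, 6.26 and 6.98 on low salt. A single array, high salt replicate 2, carried it: the difference of 0.64 ± 0.40 was 0.25 without that array. Macrophage and microglia markers averaged 9.50, 9.83 and 9.88 on the high salt arrays and 9.09, 9.45 and 9.62 on the low salt arrays, with 11 of 14 higher (10 after median centring, 8 after quantile normalization). Their part in the result was not tested. The neutrophil attractant Cxcl1 did not overlap between diets, at 6.14, 5.97 and 6.10 on high salt against 5.81, 5.93 and 5.76 on low salt. But its difference was 0.24 ± 0.10 at a level of 5.95, and 0.10 after median centring, where the diets overlapped. Ccl3 (-0.22 ± 0.12) and Ccl11 (-0.12 ± 0.09) did not overlap in the other direction. They lie outside the rule for named genes and are named because the count of separated genes holds them.

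Promoter sequences, available for 72 of the 97 genes from RefSeq (GRCr8, 250 bases before to 50 after the start of each gene), show a feature that the choice by symbol did not use. They were searched on both strands for the 10-base NF-κB consensus and for TGANTCA. The latter is the AP-1 motif loosened to allow any base at its centre, so that its matches include others than AP-1 consensus sites. The NF-κB consensus was present in 11 of the 72 genes (15.3%), against 5.20% of the 8610 genes on the array with a promoter in the table. TGANTCA was also present in 11 (15.3%), against 5.90%. In the 3 windows with both (Ccr3, Cxcl10 and Tnfrsf8) the matches did not overlap. Cxcl1 (chr14:17479272-17479571, minus strand), Cxcl2 (chr14:17467206-17467505, minus strand) and Il6 (chr4:5894526-5894825, minus strand) are shown as examples with a match, in capitals, 5′ to 3′. Cxcl12 (chr4:152060531-152060830, plus strand) and Tnfrsf1a (chr4:159836869-159837168, plus strand) are shown as well expressed genes whose windows hold none.
Cxcl1: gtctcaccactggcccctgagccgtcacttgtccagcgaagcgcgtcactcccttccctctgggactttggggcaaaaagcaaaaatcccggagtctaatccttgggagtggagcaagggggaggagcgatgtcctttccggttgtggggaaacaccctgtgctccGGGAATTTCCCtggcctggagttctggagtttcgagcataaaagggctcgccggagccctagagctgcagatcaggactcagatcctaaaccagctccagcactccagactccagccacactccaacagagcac
Cxcl2: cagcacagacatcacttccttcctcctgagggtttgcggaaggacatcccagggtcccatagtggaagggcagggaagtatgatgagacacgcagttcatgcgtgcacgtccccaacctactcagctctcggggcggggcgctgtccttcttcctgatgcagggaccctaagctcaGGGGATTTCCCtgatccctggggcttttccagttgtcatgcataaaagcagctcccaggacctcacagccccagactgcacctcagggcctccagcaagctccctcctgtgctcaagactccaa
Il6: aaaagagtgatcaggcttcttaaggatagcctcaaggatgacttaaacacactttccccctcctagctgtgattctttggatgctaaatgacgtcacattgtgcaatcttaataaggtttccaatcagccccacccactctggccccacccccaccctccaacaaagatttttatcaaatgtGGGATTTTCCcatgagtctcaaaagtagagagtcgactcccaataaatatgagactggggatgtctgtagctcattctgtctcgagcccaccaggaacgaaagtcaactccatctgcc
Cxcl12: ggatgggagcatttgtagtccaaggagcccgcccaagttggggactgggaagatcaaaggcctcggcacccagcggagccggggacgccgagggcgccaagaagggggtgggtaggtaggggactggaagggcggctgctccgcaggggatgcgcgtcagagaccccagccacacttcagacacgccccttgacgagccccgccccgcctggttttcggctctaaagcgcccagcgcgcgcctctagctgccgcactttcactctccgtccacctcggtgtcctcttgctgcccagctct
Tnfrsf1a: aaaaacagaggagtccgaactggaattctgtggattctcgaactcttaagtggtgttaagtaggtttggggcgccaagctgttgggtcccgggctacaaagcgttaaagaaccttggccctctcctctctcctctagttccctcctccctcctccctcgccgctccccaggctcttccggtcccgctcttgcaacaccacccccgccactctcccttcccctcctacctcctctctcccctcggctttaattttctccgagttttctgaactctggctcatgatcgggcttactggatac

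In Cxcl1 the match ran from base -84 to -74 before the start of the gene, in Cxcl2 from -74 to -64 and in Il6 from -68 to -59. The runs of Cxcl1 and Cxcl2 have 11 bases because 2 matches overlap in each, and Cxcl6, also on chromosome 14, had a like run from -88 to -78. The 3 are related genes, so that their matches are not independent of each other. The other genes with a match were Ccl20, Cxcl10, Ccr3, Il1r1, Il1rap, Il4r and Tnfrsf8. Of the 11 genes with an NF-κB match 0 were above the median level on the arrays, at 5.34 to 7.62, while 22 of the 61 without one were. Their differences between diets ran from -0.25 to 0.29 with a median of 0.00705, against a median of 0.00593 for the 61. The diets did not overlap for 3 of the 11 and for 3 of the 61, where 12% of all genes did not. The 25 genes without a sequence, among them Il17ra, Il11ra1 and Tnfrsf11b, are in neither group. A match describes letters in a window and is not a bound site, and the contrast between genes with and without a match was not tested.

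**Figure D2:**
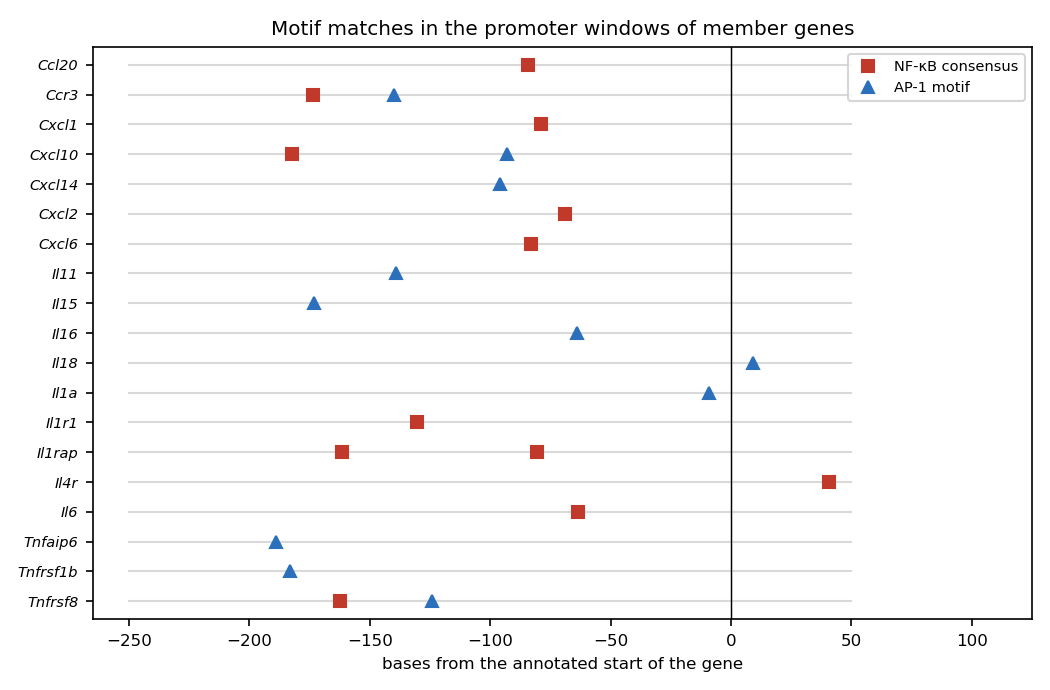
Position of each match to the NF-κB consensus (red squares) and to TGANTCA (blue triangles) in the promoter windows of the 19 genes that have either, in bases from the annotated start of the gene (horizontal axis, 1 row per gene; the marks of Il1rap are 1 site seen from a pair of annotated starts). NF-κB matches of Ccl20, Cxcl1, Cxcl2, Cxcl6, Il6 and 1 window of Il1rap lie between -89 and -59.

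Chemokine receptors were dim as a class, with 1 of 10 above the median level and 0 past the test. Cxcr4, the receptor of Cxcl12, had 8.61, 7.93 and 8.44 on high salt against 7.83, 8.30 and 7.72 on low salt, so that the diets overlapped. Its difference was 0.38 ± 0.24 (0.24 after quantile normalization, 0.23 without high salt replicate 1 and 0.58 without replicate 2). Dimmer probe sets of the gene gave 0.79 ± 0.38 and 0.08 ± 0.12. The fractalkine receptor Cx3cr1 had 6.89, 7.42 and 7.15 on high salt against 7.09, 7.08 and 7.07 on low salt. Its difference of 0.08 ± 0.15 turned to -0.0532 after median centring and to -0.0562 without high salt replicate 2. Ccr1, Ccr2, Ccr3, Ccr4, Cxcr1, Cxcr2, Cxcr3 and Cxcr5, receptors mostly carried by leukocytes, lay with Cx3cr1 at levels of 6.61 to 7.42. Differences of these 9 ran from -0.19 to 0.22.

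Of the 23 interleukins and secreted antagonists 5 were above the median level, 0 passed the test, and 0 of the 23 separated the diets as deposited. After median centring Il1a, Il3, Il5, Il6, Il10 and Il17f, all dim, were lower with no overlap, and 0 of the 23 separated after quantile normalization. The 5 were Il33, Il18bp, Il18, Il17b and Il16. Il33, an alarm signal stored in nuclei of barrier cells and of astrocytes, had 9.42, 8.78 and 9.72 on high salt against 9.44, 9.35 and 10.08 on low salt. Its difference of -0.31 ± 0.31 ran from -0.56 (quantile normalization) to -0.05 (without high salt replicate 2). A dimmer probe set of the gene, at 7.66, gave -0.08 ± 0.10. Il18, an interleukin-1 relative that is cut into its active form by caspase-1, had 8.59, 9.16 and 8.82 on high salt against 8.50, 9.07 and 8.27 on low salt, a difference of 0.25 ± 0.25. After median centring it was 0.12, and it ran from 0.07 without low salt replicate 3 to 0.48 without low salt replicate 2. Its secreted antagonist Il18bp also overlapped between diets, at 8.82, 8.92 and 9.20 on high salt against 9.12, 8.76 and 9.09 on low salt, a difference of -0.01 ± 0.16 that was -0.24 after quantile normalization.

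The classic inflammatory interleukins gave weak signals on both diets. Il6 had 5.29, 5.33 and 5.41 on high salt, against 5.31, 5.34 and 5.37 on low salt. Il1b had 7.27, 7.70 and 7.83 on high salt, against 7.50, 7.64 and 7.52 on low salt. Neither separated the diets as deposited. The difference was 0.00705 ± 0.0874 for Il6 (95% interval -0.21 to 0.22) and 0.05 ± 0.17 for Il1b (-0.36 to 0.46). After median centring the differences were -0.12 and -0.0821, and Il6 no longer overlapped. Centring shifts all genes on an array alike, so that these changes are not particular to Il6 and Il1b. At such weak signals a change in the transcript may not show on the probe set. The other 16 dim genes of this class were Il1a, Il1rn, Il2, Il3, Il4, Il5, Il7, Il10, Il11, Il12a, Il12b, Il13, Il15, Il17f, Il23a and Il24. With Il6 and Il1b they lay at 5.33 to 7.69, with differences of -0.23 (Il24) to 0.16 (Il15).

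Interleukin receptor chains pass the signal into the cell. Of 20 chains 7 were above the median level, and 5 of these 7 were higher after high salt, in the deposited values and in both rescalings, although 0 passed the test. Il17ra, the shared chain of interleukin-17 receptors, had 10.16, 9.47 and 9.99 on high salt against 8.33, 9.14 and 9.37 on low salt. Every high salt array was above every low salt array, by a narrow margin between high salt replicate 2 and low salt replicate 3. The difference was 0.93 ± 0.32, or 1.91-fold, with an adjusted p of 0.803 (limma), and it ran from 0.62 without low salt replicate 1 to 1.14 without low salt replicate 3. The other interleukin-17 receptor chain measured, Il17re, was dim (7.49), with a difference of -0.01 ± 0.13. A dimmer probe set of Il17re, at 6.88, gave 0.24 ± 0.17 with no overlap between diets. Among the ligands of the family Il17f was at 5.33 and Il17b at 8.49.

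The chains of the interleukin-6 and interleukin-11 receptors also had their lowest value on low salt replicate 1. Il11ra1, the alpha chain for interleukin-11, had 10.32, 9.76 and 9.99 on high salt against 8.92, 9.70 and 9.52 on low salt. Its diets did not overlap in the deposited values but did after median centring, and the difference of 0.64 ± 0.25 was 0.43 after quantile normalization and 0.41 without low salt replicate 1. Il6st (gp130), the signalling chain shared by these receptors, had 11.72, 11.79 and 12.15 on high salt against 10.58, 11.76 and 11.49 on low salt. High salt replicate 1 lay just below low salt replicate 2, and the difference of 0.61 ± 0.33 was 0.40 after quantile normalization and 0.26 without low salt replicate 1. Its other probe sets, both above the level, gave 0.78 ± 0.35 and 0.70 ± 0.24. Il6r, outside the rule for named genes and given because it pairs with Il6st, differed by 0.63 ± 0.39, with 9.17, 8.46 and 8.78 on high salt against 7.35, 8.59 and 8.58 on low salt. Without low salt replicate 1 it differed by 0.22. That array, which stood apart over all probe sets, was the lowest of the 6 for Il17ra too, as it was for 51.1% of all genes above the median level.

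The remaining chains above the level were Il3ra, Il2rg and Il13ra2, all overlapping between diets, with differences of 0.40 ± 0.31, -0.31 ± 0.41 and -0.06 ± 0.24. They lie outside the rule for named genes and complete the 7. Single arrays moved each: Il3ra to 0.13 without low salt replicate 2, Il2rg to -0.74 without high salt replicate 3, and Il13ra2 to 0.13 without that array. Among the 13 dim chains Il4r (0.29 ± 0.16, 0.16 after median centring) and Il10ra (-0.27 ± 0.14, -0.14 without low salt replicate 1) did not overlap between diets, at levels of 7.06 and 7.04. After median centring the diets overlapped for Il4r. The other 11 were Il1r1, Il1r2, Il1rap, Il1rl1, Il1rl2, Il2ra, Il2rb, Il5ra, Il7r, Il9r and Il17re. Il1rl1, the receptor of Il33, had a difference of 0.03 ± 0.13.

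**Figure D3:**
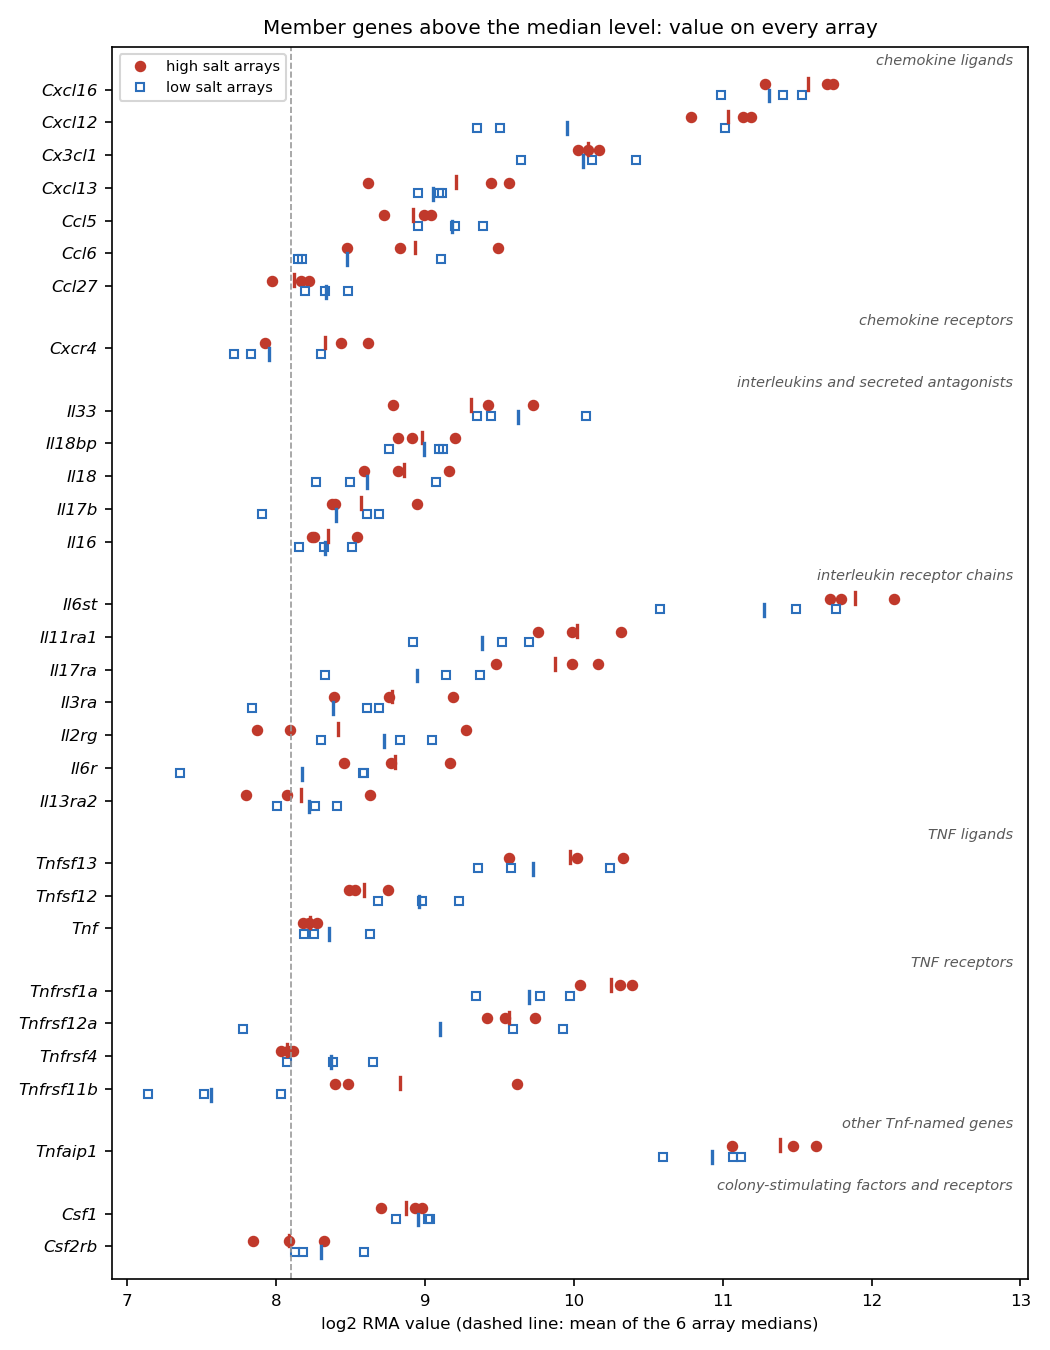
Log2 RMA value (horizontal axis) of the 30 genes above the median level on every array, 1 row per gene and grouped by class. Filled red circles are the 3 high salt arrays, open blue squares the 3 low salt arrays, and short bars the diet means. Only Il11ra1, Il17ra, Tnfrsf1a and Tnfrsf11b show no overlap between diets.

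TNF receptors included 4 of 9 genes above the median level, and the direction of each of the 9 was the same in all 3 scalings, 5 higher and 4 lower after high salt, with 0 past the test. The widest difference of the 97 genes was that of Tnfrsf11b (osteoprotegerin), a secreted decoy receptor that binds the bone-resorption ligand Tnfsf11 (RANKL). It had 8.49, 8.40 and 9.62 on high salt against 7.14, 8.03 and 7.52 on low salt. All 3 high salt arrays were above all low salt arrays, and high salt replicate 3 was far above the other high salt arrays. The difference was 1.27 ± 0.40, or 2.41-fold, with an adjusted p of 0.803 (limma), and it was 0.88 without high salt replicate 3. Tnfsf11 itself was at 5.49, with a difference of -0.03 ± 0.09.

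Tnfrsf1a, the widely expressed receptor that carries most inflammatory signals of TNF, had 10.39, 10.31 and 10.04 on high salt against 9.34, 9.78 and 9.97 on low salt. The diets did not overlap, although high salt replicate 3 and low salt replicate 3 were close. The difference was 0.55 ± 0.19, or 1.47-fold, and 0.32 after quantile normalization. The diets overlapped after either rescaling. Tnfrsf12a (Fn14), the receptor of Tnfsf12, had 9.54, 9.74 and 9.41 on high salt against 9.93, 7.78 and 9.59 on low salt. Its difference of 0.46 ± 0.56 was 0.19 after quantile normalization and turned to -0.20 without low salt replicate 2. Tnfrsf4 (OX40), a costimulatory receptor of T cells, had 8.03, 8.11 and 8.08 on high salt against 8.65, 8.08 and 8.38 on low salt, a difference of -0.29 ± 0.16 that was -0.46 after quantile normalization and -0.15 without low salt replicate 1. It too overlapped as deposited and not after either rescaling.

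Among the 5 dim TNF receptors Tnfrsf21 (death receptor 6) was higher by 0.55 ± 0.21 at a level of 7.39 (0.32 without high salt replicate 3), and Tnfrsf8 (CD30) stood at -0.25 ± 0.10 at 6.69 (-0.39 after median centring). Neither overlapped between diets. The others were Tnfrsf1b, Tnfrsf9 and Tnfrsf14, at 6.30 to 7.14.

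Of the 5 TNF ligands 4 were lower after high salt in all 3 scalings, with 0 past the test. Tnf gave 8.18, 8.28 and 8.22 on high salt against 8.63, 8.19 and 8.25 on low salt, close to the median level. The difference of -0.13 ± 0.14 (95% interval -0.48 to 0.22, -0.30 after quantile normalization) was 0.00579 without low salt replicate 1. A second probe set of Tnf, at 5.22 and far below the level, gave -0.08 ± 0.09. Tnfsf12 (TWEAK) had 8.75, 8.49 and 8.53 on high salt against 9.23, 8.69 and 8.98 on low salt, a difference of -0.37 ± 0.17 that was -0.59 after quantile normalization and -0.24 without low salt replicate 1. Its diets overlapped as deposited and did not after either rescaling. Tnfsf13 (APRIL), a survival factor of B cells, had 9.57, 10.33 and 10.02 on high salt against 9.58, 10.25 and 9.36 on low salt, and its difference of 0.25 ± 0.30 was 0.02 after quantile normalization and 0.51 without low salt replicate 2. Tnfsf4 and Tnfsf11 were dim.

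A further 4 genes are named for TNF without being ligands or receptors. Tnfaip1, which encodes an adaptor of a ubiquitin ligase, had 11.63, 11.06 and 11.47 on high salt against 10.60, 11.07 and 11.12 on low salt, a difference of 0.46 ± 0.21 (0.25 after quantile normalization). Its diets overlapped only between high salt replicate 2 and the upper 2 low salt arrays. Tnfaip8 differed by 0.71 ± 0.41 at a level of 7.93 (0.29 without low salt replicate 1, against 1.13 when low salt replicate 2 was left out), and Tnfaip2 and Tnfaip6 by 0.14 ± 0.17 and 0.02 ± 0.09.

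Colony-stimulating factors and the receptor chain measured with them were all lower after high salt, 4 of 4 in each scaling, by small amounts and with 0 past the test. Csf1, which keeps macrophages alive, had 8.71, 8.93 and 8.98 on high salt against 9.02, 8.80 and 9.03 on low salt, a difference of -0.08 ± 0.12 that was -0.29 after quantile normalization and 0.00323 without high salt replicate 1. Csf2rb, the chain shared by receptors of Csf2, interleukin-3 and interleukin-5, had 7.85, 8.32 and 8.08 on high salt against 8.59, 8.13 and 8.18 on low salt, a difference of -0.22 ± 0.18 (-0.37 after quantile normalization, -0.07 without low salt replicate 1). Csf3 and Csf2 lie outside the rule for named genes and complete the 4: Csf3 did not overlap between diets at -0.14 ± 0.08, and Csf2 differed by -0.23 ± 0.13.

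**Figure D4:**
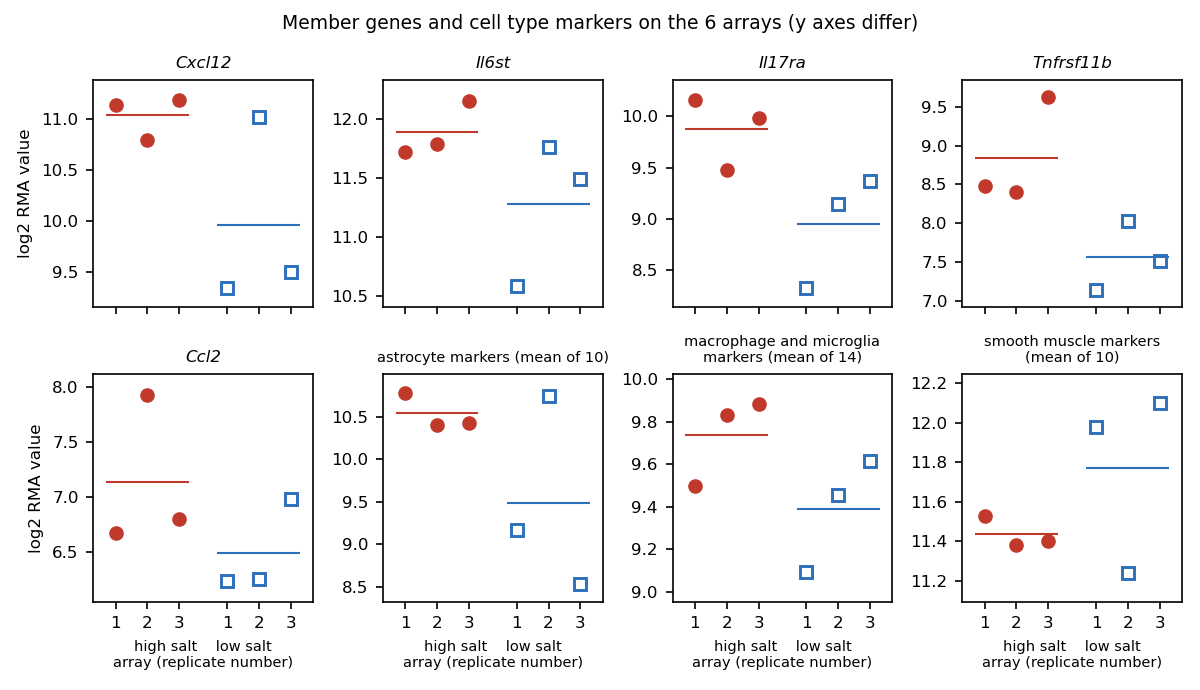
Log2 RMA value (vertical axes, which differ between panels) on the 3 high salt arrays (filled red circles) and the 3 low salt arrays (open blue squares), by replicate number, with diet means as lines, for 5 genes and for the mean of 3 sets of cell type markers. Low salt replicate 2 lies with the high salt arrays for Cxcl12 and the astrocyte markers. For the smooth muscle markers it lies below all other arrays (11.2, against 12.0 and 12.1 on low salt and 11.4 to 11.5 on high salt).

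The SD over the 3 arrays was larger on low salt than on high salt for 22 of the 30 genes above the median level (73.3%), against 4683 of all 6248 genes above it. Among the 67 dim genes it was larger on low salt for 36 (53.7%), against 65.1% of all dim genes. Low salt replicate 1 gave the highest value of the 6 arrays for 31 of the 67 dim genes, or 46.3%, against 47.0% of all dim genes. It gave the lowest value for 10 of the 30 genes above the level, or 33.3%, against 51.1%. High salt replicate 1 gave the lowest value for 30 of the 67 dim genes, or 44.8%, against 29.0% of all dim genes.

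Genes that act next to these receptors were read from 5 lists, of which 0 genes were called (limma, Benjamini-Hochberg). Of 8 measured NF-κB subunits, inhibitors and kinases 6 were higher after high salt in each scaling, with a median of 0.25 (0.12 after median centring and 0.07 after quantile normalization). The inhibitor Nfkbia, an early target of NF-κB, differed by 0.72 ± 0.35 (0.47 after quantile normalization), Nfkb2 by 0.55 ± 0.27, and Rela, of highest mean signal in the list, by -0.08 ± 0.23 (-0.31 after quantile normalization). Of 19 JAK, STAT and SOCS genes 12 were higher (8 and 9 after the rescalings), with Tyk2 at 0.24 ± 0.10 (0.03 after quantile normalization), Stat3 at 0.52 ± 0.29 (0.32) and Ptpn11 at 0.15 ± 0.36 (-0.06 after quantile normalization). Socs3, a target of gp130 signalling that lies outside the naming rule, differed by -0.21 ± 0.14 at a level of 7.58.

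Of 16 Toll-like receptors and adaptors 12 were higher (11 and 10 after the rescalings), median 0.28. At an unadjusted p below 0.05 (limma) stood 1 of them, Traf3, an adaptor of TNF and Toll-like receptors, at 0.60 ± 0.24. Among the adhesion molecules 1 stood there too, F11r, and in the remaining lists 0, where 6.43% of all genes stood. Tollip, an inhibitor of interleukin-1 receptor signalling, differed by 0.42 ± 0.17 (0.20 after quantile normalization). Of 9 adhesion molecules of leukocyte entry 4 were higher (3 and 3), with F11r, a junction protein of endothelium and platelets, at 0.71 ± 0.17 (0.48 after quantile normalization), Icam1 at 0.30 ± 0.13 (0.05) and Icam2 at -0.03 ± 0.53 (-0.23). The selectins Selp and Sele, which catch leukocytes on inflamed endothelium, were at 5.96 and 5.37, and were named outside the rule. Of 19 related genes with other names (gp130 cytokines, atypical chemokine receptors, interferon gamma and its receptor) 10 were higher, 8 after either rescaling. Ifngr1, a chain of the interferon gamma receptor, differed by 0.56 ± 0.28 (0.33 after quantile normalization), Cntf by 0.23 ± 0.11 at a level of 6.98, and the chemerin gene Rarres2 by 0.22 ± 0.22 (0.01).

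Leukocyte markers were read beside the receptors. Of 13 lymphocyte markers 1 was above the median level, and 0 of 4 neutrophil markers and 0 of 9 mast cell markers were. Lymphocyte markers averaged 6.53 to 6.76 on high salt and 6.72 to 6.89 on low salt, and 12 of 14 macrophage and microglia markers were above the level. At an unadjusted p below 0.05 (limma) 1 lymphocyte marker, the dim Cd3g, was lower, and 1 macrophage and microglia marker was higher. Of all genes 6.43% stood there.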

How the data were processed

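Each of the 6 arrays measured RNA of pooled cerebral arteries, amplified in 2 cycles and hybridised to an Affymetrix rat array, per the labels' protocols. The deposited table holds log2 values that the authors made with RMA, per the submitters' processing notes, which name no version. The base was read from the range of the values. The number of arrays limits the precision.

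Of 15923 probe sets, 57 controls were left out. Names came from the platform annotation: 12783 probe sets had 1 symbol, 312 several and 2771 none here, and 12748 were matched by Entrez identifier to RefSeq (GRCr8), which changed 0 symbols. The 97 genes had 119 probe sets. Probe sets with several symbols named no gene.

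The comparison was fitted with limma 3.58.1 in R 4.3.3 (lmFit and eBayes, 3 arrays against 3, no block), with Benjamini-Hochberg adjustment over 15866 probe sets and calls at 0.05. Intervals are 95% intervals of the same fit, not adjusted for the number of genes. The spread between arrays holds differences between pools and technical error together. The steps were tested on simulated data.

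Genes were chosen by symbol with earlier results of these data known, as were the lists. Named with values on every array were genes above the median level with an unadjusted p below 0.05 or no overlap between diets, the 3 of highest mean in each class above it, and Il1b, Il6, Tnf, Ccl2, Cx3cl1, Cx3cr1, Cxcl12, Il18 and Csf1. At most 5 dim genes of lowest p were added, and the gene of highest mean and the 2 of lowest p of a list. The alternatives rescaled the arrays (median centring or quantile normalization), kept only probe sets above the 40th percentile, fitted trended and robust variances, weighted arrays, took the replicate number as a block, or left out an array in turn. Others averaged all probe sets of a gene, adjusted over 1 per gene, or added those with several symbols.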

Additional observations from a re-analysis of the deposited data

How the results depend on the processing

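Under the 15 alternatives 0 of the 97 genes were called. The count of genes at an unadjusted p below 0.05, 6 in the main setting, was 10 with array weights, 3 with the replicate number as a block, and 1 to 14 with an array left out (14 without low salt replicate 2, 1 without low salt replicate 1). Of all genes 10.6% stood there with array weights, 5.47% with the block, 20% without low salt replicate 2 and 4.32% when low salt replicate 1 was left out, against 10.3%, 3.09%, 14.4% and 1.03% of the genes studied. The count of genes whose diets did not overlap, 12 in the main setting, was 27 after median centring (24 of them lower), 5 among the 41 genes above the 40th percentile, and 17 to 34 with an array left out, where fewer arrays overlap less. The share after centring was 27.8% (24.7% lower), against 17.9% of all genes (13.9% lower). After quantile normalization it was 18.6% (9.28% lower), against 12.4% of all genes (7.66% lower). These shares were not split by level, and 67 of the 97 genes were dim, against 4163 of all 10411. Above the 40th percentile 12.2% of the genes studied stood at an unadjusted p below 0.05 (limma), against 6.75% of all genes. The share without overlap there was 12.2% against 12.8%. Without low salt replicate 1 it was 17.5% against 16.6%, and without low salt replicate 2 35.1% against 41.2%. The median difference of genes above the median level (0.21 in the main setting) was 0.0780 after median centring, -0.000506 after quantile normalization, 0.11 with array weights, and -0.0378 to 0.20 with an array left out, the lowest without low salt replicate 2, where all genes above the level had 0.25. Of 29 named genes 21 kept their sign throughout. Cx3cl1 turned to -0.0957 (median centring), -0.22 (quantile normalization) and -0.13 (array weights), Il1b to -0.0821 and -0.00562 (median centring, quantile normalization), Il6 to -0.12 and -0.0149 (median centring, array weights) and Cx3cr1 to -0.0532 (median centring). With an array left out Cx3cl1 ran from -0.17 to 0.21, Il18bp from -0.13 to 0.0676, Tnf from -0.22 to 0.00579, Tnfrsf12a from -0.20 to 0.88, Csf1 from -0.16 to 0.00323, Il1b from -0.0679 to 0.22, Il6 from -0.0255 to 0.0333 and Cx3cr1 from -0.0562 to 0.21. The turns under median centring come from the shift that it gives all genes alike. The cause of the others was not tested. Deviations from the diet means correlated at 0.04, -0.27 and 0.04 between arrays of the same number, and from -0.39 to 0.37 between arrays of different numbers. With 3 arrays per diet, whether the numbers pair the arrays cannot be told from these values. For dim probe sets the signal over background limits what can be seen.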
